A study of Mus musculus with 8 samples.

Results

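The enzymes that add methyl groups to histone lysines and those that take them off were followed across bones, as 47 protein-coding mouse genes out of 43346 genes in the count table. They were taken by symbol. The rule covered the Kmt, Kdm, Setd, Suv39 and Suv420 families together with Nsd1, Nsd2, Nsd3, Ezh1, Ezh2, Ehmt1, Ehmt2, Dot1l, Ash1l and Prdm9, with the older symbols of these genes counted under their present ones. Uty and Kdm5d were set aside by the rule. Of the 50 symbols in the table that the families matched, Kdm5d was therefore dropped, as were the pseudogene Kdm4dl and the antisense transcript Kdm6bos. A filter on low counts kept 46 of the 47 genes for testing. Kdm4d had 2 to 8 counts in each library and was not tested.

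RNA was sequenced from bone fractions enriched for osteocytes, the cells buried in mineralised matrix. They came from the femur, a long bone, and from the frontal and parietal bones, the flat bones of the skull vault (calvaria), of C57BL/6 mice aged 12 weeks. There were 3 femur libraries (numbered 1, 2 and 4), 3 frontal libraries (1, 2 and 4) and 2 parietal libraries (2 and 4), all prepared from total RNA by Nextera XT and sequenced from both ends. The labels give no genotype, sex or treatment and do not say whether libraries came from separate animals or pools. The p-values therefore speak of the spread among these 8 libraries, some of which may be technical.

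Lysine methylation on histone tails does not change their charge. It acts by creating docking sites for other proteins, and its meaning depends on the residue. Methylation of lysine 4 or lysine 36 of histone H3 marks active promoters, enhancers and transcribed gene bodies, methylation of lysine 79 accompanies elongation, and methylation of H3 lysine 9, H3 lysine 27 or H4 lysine 20 marks silent or compacted chromatin. Most of the methyltransferases carry a SET domain, DOT1L being the exception, and the demethylases are either flavin-dependent amine oxidases (KDM1A and KDM1B) or iron-dependent JmjC dioxygenases. In bone, EZH2 and the demethylases of H3 lysine 27 are known for their part in osteoblast differentiation, and KDM1A and DOT1L are known from blood cell formation and leukaemia.

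The promoters of 4 genes whose calls held in both fits described further on are shown for orientation, the 2 with the largest differences among those lower in calvaria and the 2 that were higher. Each runs from 250 bases before to 50 bases after the annotated start, 5′ to 3′ on the gene's strand, as in RefSeq on GRCm38.p6. Capitals mark matches on either strand to CCAAT, to TGACGTCA (a CRE), to TGANTCA (AP-1) or to TTTCCCGC or TTTGGCGC (E2F-type). These lie at chr10:80754953-80755252 (+) for Dot1l, chr4:136602674-136602973 (-) for Kdm1a, chr6:47594981-47595280 (-) for Ezh2 and chr2:3474937-3475236 (-) for Suv39h2.
Dot1l: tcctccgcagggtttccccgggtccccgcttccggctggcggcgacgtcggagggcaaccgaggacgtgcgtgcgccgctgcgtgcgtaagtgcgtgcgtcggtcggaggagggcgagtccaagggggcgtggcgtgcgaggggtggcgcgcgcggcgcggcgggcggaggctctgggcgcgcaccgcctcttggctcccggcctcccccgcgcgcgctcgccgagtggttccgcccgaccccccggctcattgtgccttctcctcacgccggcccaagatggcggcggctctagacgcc
Kdm1a: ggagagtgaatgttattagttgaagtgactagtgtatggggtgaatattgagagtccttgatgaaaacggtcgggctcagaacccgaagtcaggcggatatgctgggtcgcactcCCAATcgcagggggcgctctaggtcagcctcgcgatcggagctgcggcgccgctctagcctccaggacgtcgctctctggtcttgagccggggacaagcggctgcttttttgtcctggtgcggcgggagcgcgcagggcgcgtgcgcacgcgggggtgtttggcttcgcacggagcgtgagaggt
Ezh2: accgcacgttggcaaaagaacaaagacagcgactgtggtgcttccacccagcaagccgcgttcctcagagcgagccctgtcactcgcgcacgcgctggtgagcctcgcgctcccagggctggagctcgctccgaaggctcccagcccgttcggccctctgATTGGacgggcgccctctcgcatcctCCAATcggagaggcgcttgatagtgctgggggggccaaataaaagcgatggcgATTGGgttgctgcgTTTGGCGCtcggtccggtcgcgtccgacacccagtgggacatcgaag
Suv39h2: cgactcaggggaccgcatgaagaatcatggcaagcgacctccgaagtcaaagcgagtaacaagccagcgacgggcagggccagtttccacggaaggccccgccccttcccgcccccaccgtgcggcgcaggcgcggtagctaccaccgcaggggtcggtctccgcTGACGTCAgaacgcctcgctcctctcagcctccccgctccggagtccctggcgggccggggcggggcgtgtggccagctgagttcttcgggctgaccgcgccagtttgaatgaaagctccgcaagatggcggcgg
The Ezh2 window held 3 CCAAT matches and 1 E2F-type match, the Suv39h2 window 1 CRE, the Kdm1a window 1 CCAAT match, and the Dot1l window none of the 4 motifs. Over 32851 promoters of the same length in the table, 37.4% held CCAAT, 7.81% AP-1, 1.79% a CRE and 1.56% an E2F-type match. The table had 48 promoters for 35 of the 47 genes, of which 20, 4, 1 and 2 held these motifs in the same order. The 2 with an E2F-type match belonged to Ezh2 and Kmt5c. No count says that a factor binds there.

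The femur libraries and the calvarial libraries differed widely in which cells their RNA came from. The libraries held between 6259229 and 13461622 counts in genes. Osteocyte markers took 2.35 to 4.61% of counts in femur and 0.0798 to 0.148% in calvaria, and 10 of 12 fell. Erythroid markers took 1.19 to 2.90% in femur and 6.99 to 11.1% in calvaria (12 of 12 rose), and granulocyte markers 1.64 to 4.27% and 6.31 to 8.54% (8 of 12 rose). B cell markers took 0.0215 to 0.0295% and 0.0731 to 0.0912% (9 of 10 rose), and proliferation genes 0.0771 to 0.125% and 0.281 to 0.358% (12 of 12 rose). No marker was at 0 in all libraries. Xist had 0 or 1 count and the Y-linked Ddx3y 501 to 2886 counts in each library, so the X-linked members Kdm5c, Kdm6a and Suv39h1 were compared between libraries of like sex markers. These shares move with every difference between femur and calvaria below, and their part in those differences was not tested. In such bulk samples, fewer cells of a type and less RNA per cell cannot be told apart.

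Most members were lower in calvaria on the usual scale, higher and lower members were about equally many once gene length and base composition were taken into account, and nearly all were higher, as were 94.9% of all genes, if libraries were scaled to osteocyte markers. On the TMM scale (counts relative to a library total adjusted by trimmed means, given as CPM), 27 of the 46 tested genes fell in calvaria against femur, 2 rose and 17 were not called, by edgeR's quasi-likelihood test at an adjusted p under 0.05 over 15511 genes. Over all 15511 genes, 31.4% fell and 29.6% rose, against 58.7% and 4.35% of the members. The members' median log2 difference was -0.54 and that of all genes 0.012. In 17 members every calvarial library lay below every femur library and in 2 every one lay above, where all genes gave 27.5% and 26%. These genes are long, with a median exonic length of 8170.5 bases against 4011 for all genes tested, and longer genes of any kind were lower in calvaria. The median log2 difference of all genes went from 0.54 under 2 kb to -0.44 over 8 kb, where 47.9% of genes fell. The 24 members over 8 kb had a median of -0.67. Their median GC content was close to that of all genes (49% against 49.4%), but single members ran from 39.6% (Kdm7a) to 60.8% (Ehmt2). The trend removed below covers length and GC together, and their parts were not separated.

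With a smooth trend on exonic length and GC content taken out of each library, 12 members rose and 10 fell, beside 31.8% and 27.4% of all genes, and the members' median became 0.11. Of the 29 calls, 15 were lost and 8 others were gained, and 9 called members changed sign. If libraries were instead scaled to their osteocyte markers, which shifts the median of all genes by 3.08, 44 members were called higher and only Dot1l and Kdm1a lower, beside 94.9% and 1.03% of all genes. On that scale the members' median log2 difference was 2.55 against 3.08 for all genes. This scaling shifts every gene by about the same amount, so the members' place below all genes was carried over from the TMM scale. Each rise or fall below is one on the TMM scale unless stated. The members called lower on the TMM scale therefore divide into 10 that also fell with the trend removed and 17 that did not. The 10 are Dot1l, Kdm1a, Kdm4b, Kdm5b, Kmt5b, Kdm5c, Ash1l, Kmt2a, Kdm3a and Setd2. Ezh2 and Suv39h2 rose in both fits.

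**Figure D1:**
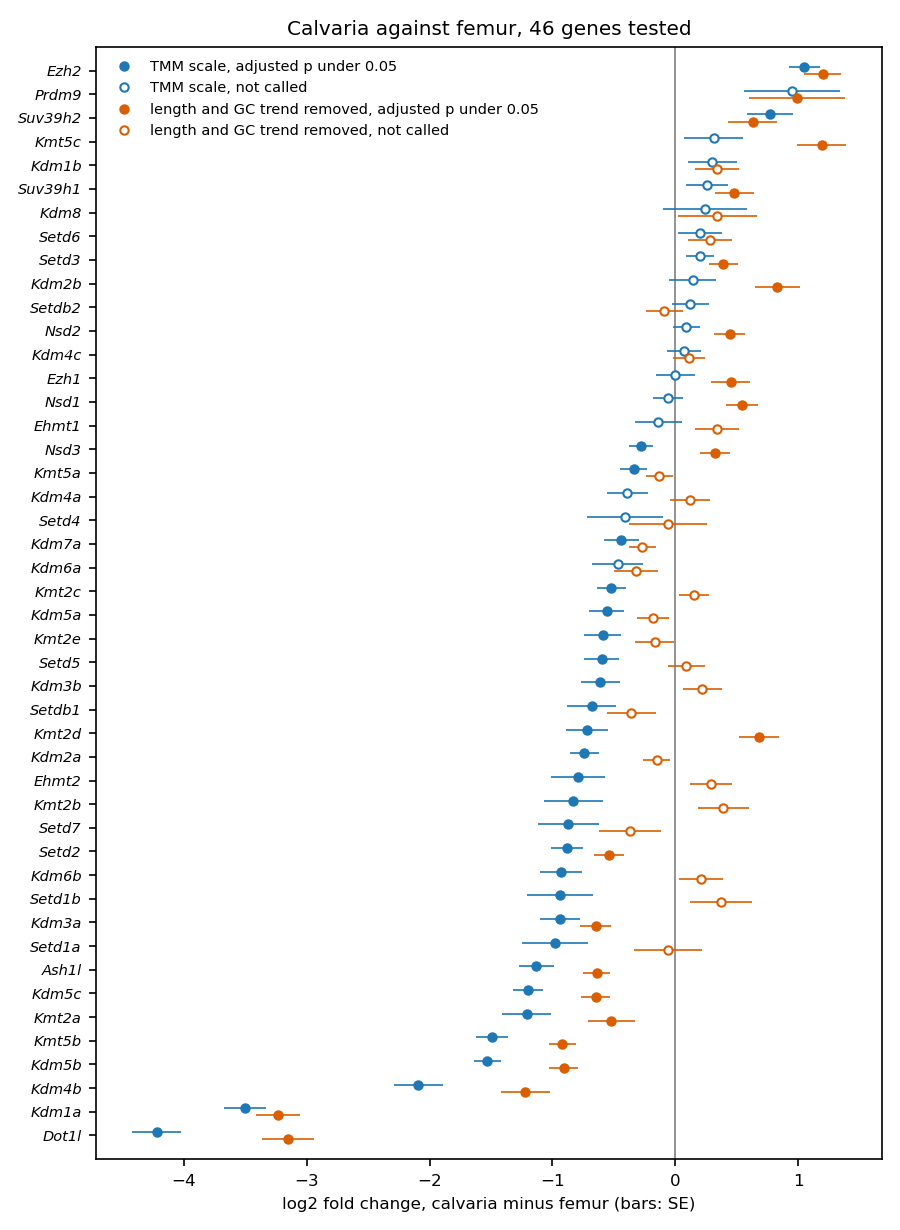
Log2 difference between calvaria (5 libraries) and femur (3 libraries) for the 46 tested genes, with SE bars, on the TMM scale (blue) and after removal of the trend on length and GC (orange). Filled points passed an adjusted p of 0.05. Dot1l and Kdm1a stand apart at -4.22 and -3.50, most others move right when the trend is removed, and on a scale set by osteocyte markers 44 of the 46 were called higher, beside 94.9% of all genes.

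**Figure D2:**
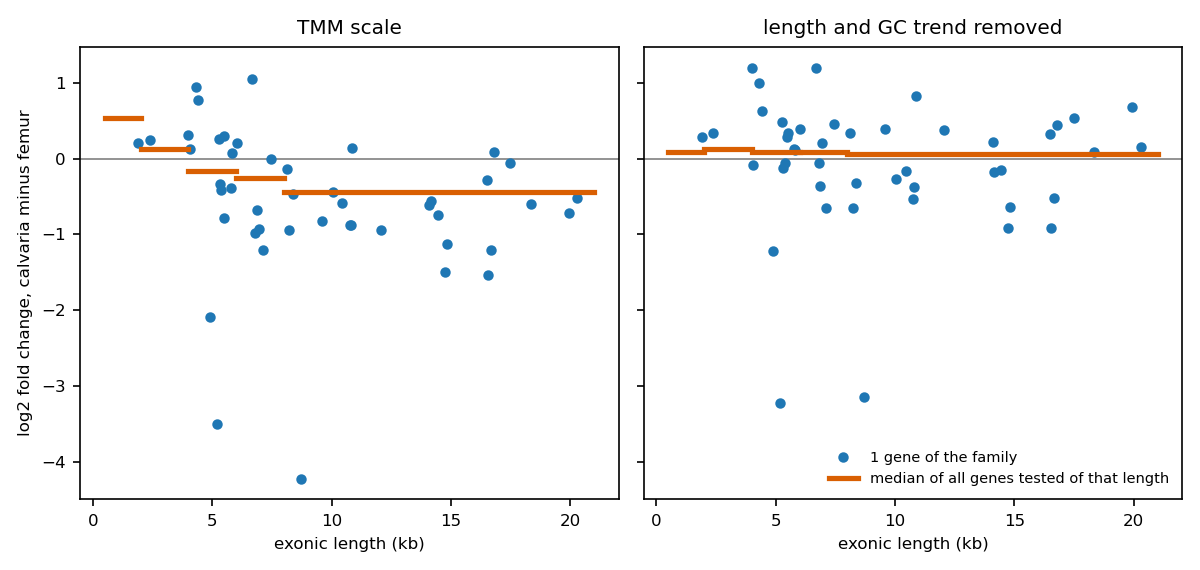
Log2 difference between calvaria and femur against exonic length in kb, 1 point per gene, before (left) and after (right) removal of the length and GC trend. Orange bars are the medians of all genes tested in each length class, which go from 0.54 to -0.44 on the left and stay between 0.06 and 0.13 on the right.

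Across the 46 members the Spearman correlation of length with the log2 difference was -0.40, and across all genes with a length it was -0.30. For GC content the values were -0.30 and -0.20. They are descriptions across genes of the same 8 libraries.

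DOT1L, the methyltransferase of H3 lysine 79, had the largest difference of the family. Dot1l (chr10:80755206-80795461, + strand, GENCODE M21 on GRCm38) stood at 650, 533 and 325 CPM in femur libraries 1, 2 and 4. It stood at 31.0, 37.0 and 34.1 CPM in frontal libraries 1, 2 and 4 and at 20.9 and 21.8 CPM in parietal libraries 2 and 4. Every femur library was far above every calvarial one, and femur library 4 was the lowest of its bone. The gene fell by 4.22 ± 0.20 (SE) on the log2 scale, 18.6-fold (adjusted p = 4.33e-08, edgeR), and by 3.15 with the trend removed. It was the 115th most lowered of 15511 genes.

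KDM1A (LSD1), which removes mono- and dimethyl groups from H3 lysine 4, was likewise far lower in calvaria. Kdm1a (chr4:136550540-136602723, - strand) stood at 646, 508 and 376 CPM in femur libraries 1, 2 and 4, at 50.4, 43.4 and 51.0 CPM in the frontal libraries and at 36.6 and 47.3 CPM in the parietal libraries. Again every femur library was above every calvarial one and femur library 4 was the lowest of the femur, while frontal and parietal libraries overlapped. The log2 difference was -3.50 ± 0.17, 11.3-fold (adjusted p = 5.13e-08, edgeR), and -3.23 with the trend removed, the 234th lowest. The osteocyte markers took 4.61, 4.56 and 2.35% of counts in femur libraries 1, 2 and 4, so library 4 was lowest in this share. Most of the share was Dmp1, with 252830, 454729 and 167382 counts. Not every marker followed it, since Sost had 1465, 2435 and 3747 counts, the most in library 4. Both genes were also lower in calvaria on the scale set by the osteocyte markers, which shifts the median of all genes by 3.08, less than either fall. Whether either gene follows the osteocyte share was not tested.

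Together Dot1l and Kdm1a took 0.0684 to 0.120% of all counts in femur, 0.00851 to 0.00872% in frontal and 0.00559 to 0.007% in parietal bone. All 47 members took 0.277 to 0.337% in femur, 0.187 to 0.198% in frontal and 0.145 to 0.154% in parietal bone. Without these 2 genes the ranges were 0.209 to 0.227%, 0.179 to 0.190% and 0.139 to 0.147%, so the 3 bones still did not overlap. Per kb of exon they headed the family in femur, Kdm1a with 98.5 ± 26.1 (SD, n = 3) and Dot1l with 57.7 ± 18.9 CPM per kb, whose ranges over the 3 libraries overlapped. Kmt5a came next with 27.9 ± 1.74 CPM per kb. In frontal bone the order was headed by Kmt5a with 25.8, Kmt2e with 16.1, Setd3 with 14.7 and Ezh2 with 13.3 CPM per kb. In parietal bone it was Kmt5a with 18.7, Setd3 with 12.3, Kmt2e with 10.5 and Ezh2 with 10.4 CPM per kb.

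**Figure D3:**
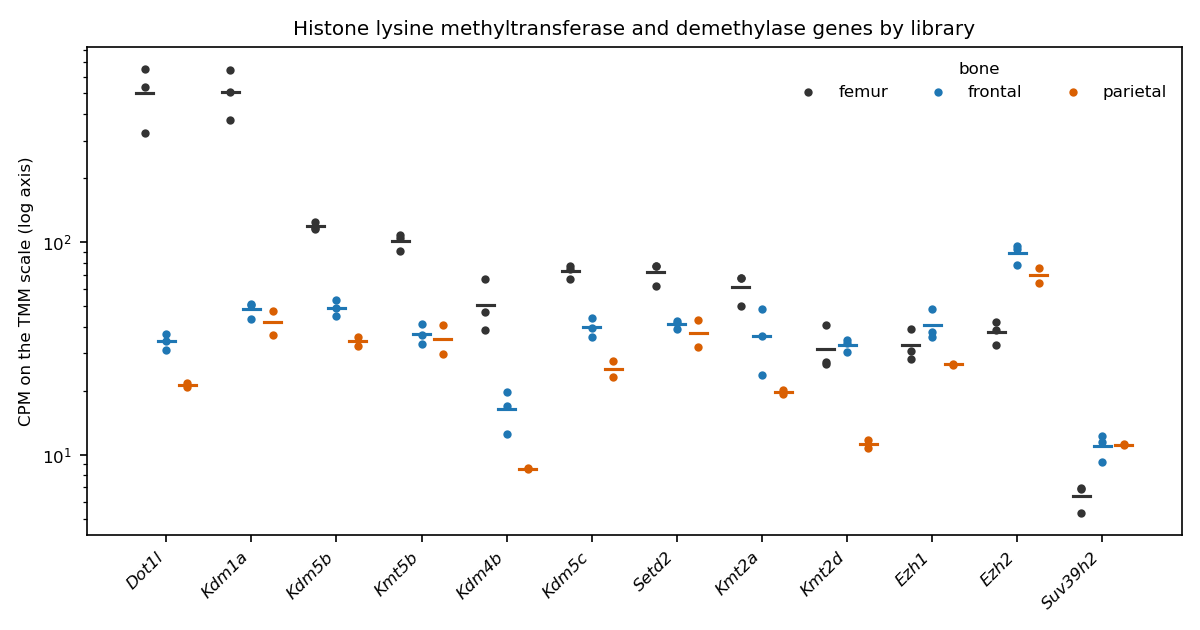
CPM on the TMM scale (log axis) of 12 genes in each femur, frontal and parietal library, with short bars at the bone means. Dot1l and Kdm1a lie between 325 and 650 CPM in femur and between 20.9 and 51.0 CPM in calvaria, while Ezh2 and Suv39h2 are higher in every calvarial library.

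The H3 lysine 27 writers gave the clearest member higher in calvaria. Ezh2 (chr6:47530139-47595341, - strand), the catalytic subunit of Polycomb repressive complex 2 (PRC2) in dividing cells, stood at 32.8, 38.6 and 42.0 CPM in femur libraries 1, 2 and 4, at 96.0, 78.2 and 92.8 CPM in the frontal and at 75.1 and 64.1 CPM in the parietal libraries. All calvarial libraries exceeded all femur libraries. It rose by 1.05 ± 0.13 on the log2 scale (adjusted p = 3.66e-05, edgeR), and by 1.20 with the trend removed. All 12 proliferation genes rose with it, and their part in the result was not tested. Its paralog Ezh1, the subunit known from resting cells, stood at 30.8, 38.8 and 28.2 CPM in femur, at 37.6, 35.8 and 48.3 CPM in frontal and at 26.7 and 26.4 CPM in parietal libraries. These ranges overlapped, with a log2 difference of 0.00 ± 0.16 (adjusted p = 0.983), and of 0.45 (adjusted p = 0.0245) with the trend removed.

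Of the 6 tested H3 lysine 9 methyltransferases, Suv39h2 rose, 2 fell and 3 were not called, where 29.6% of all genes rose and 31.4% fell. With the trend removed 2 rose and none fell, beside 31.8% and 27.4% of all genes. Suv39h2 (chr2:3455815-3475031, - strand), which with SUV39H1 trimethylates pericentromeric heterochromatin, stood at 5.33, 6.99 and 6.88 CPM in femur libraries 1, 2 and 4, at 12.2, 9.18 and 11.5 CPM in frontal and at 11.2 and 11.1 CPM in parietal libraries. All calvarial libraries were above all femur libraries, and frontal and parietal libraries overlapped. It rose by 0.77 ± 0.19 on the log2 scale (adjusted p = 0.00422, edgeR), and by 0.63 with the trend removed. Its exons share 357 bases with Dclre1c on the other strand, which had more counts (2016 against 704 over all libraries) and a log2 difference of 0.54 (adjusted p = 0.0233), and without a stated strand setting their reads cannot be told apart there.

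Suv39h1 stood at 26.6, 25.5 and 32.0 CPM in femur, at 48.5, 33.7 and 53.1 CPM in frontal and at 24.9 and 25.0 CPM in parietal libraries. Frontal libraries were all above femur and both parietal libraries just below it. The mean over both calvarial bones differed from femur by 0.26 ± 0.17 (adjusted p = 0.202), or by 0.48 (adjusted p = 0.0231) with the trend removed. Ehmt2 (G9a), the partner of EHMT1 in mono- and dimethylation of H3 lysine 9, stood at 28.2, 30.0 and 34.0 CPM in femur, at 27.8, 22.9 and 13.2 CPM in frontal and at 17.1 and 12.1 CPM in parietal libraries. All calvarial libraries were below femur, the first frontal one by little, and its log2 difference of -0.79 ± 0.22 (adjusted p = 0.00791) became 0.29 (adjusted p = 0.166) with the trend removed. Setdb1, the trimethylase that silences retroelements, differed by -0.68 ± 0.20 (adjusted p = 0.011) and by -0.36 (adjusted p = 0.136) with the trend removed. Ehmt1 differed by -0.14 ± 0.19 (adjusted p = 0.527).

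Of the 8 tested H3 lysine 4 methyltransferases, 7 fell on the TMM scale, beside 31.4% of all genes. With the trend removed 1 fell and 2 rose, beside 27.4% and 31.8% of all genes. With osteocyte marker scaling Kmt2a, Kmt2c, Kmt2d and Setd1a all turned positive, where 94.9% of all genes were higher. Kmt2a (MLL1), which keeps Hox genes active, was the one that fell in both fits. It stood at 67.4, 67.6 and 49.9 CPM in femur libraries 1, 2 and 4, at 48.3, 23.8 and 36.2 CPM in frontal and at 19.3 and 20.2 CPM in parietal libraries. All calvarial libraries were below the femur, frontal library 1 by the least. The log2 difference was -1.21 ± 0.20 (adjusted p = 2.74e-04, edgeR) and -0.52 (adjusted p = 0.0354) with the trend removed. In that second fit Kmt2a was not called in frontal bone against femur (-0.16, adjusted p = 0.54) but fell in parietal bone (-0.87, adjusted p = 0.0113). Setd1a, a COMPASS enzyme of promoters, stood at 7.56, 7.36 and 4.08 CPM in femur, at 3.82, 3.54 and 3.51 CPM in frontal and at 2.29 and 3.40 CPM in parietal libraries. Its log2 difference of -0.98 ± 0.27 (adjusted p = 0.00731) became -0.06 (adjusted p = 0.868).

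Kmt2d (MLL4), a monomethylase of enhancers, changed its call with the fit. It stood at 26.6, 40.7 and 27.2 CPM in femur, at 34.5, 33.5 and 30.3 CPM in frontal and at 10.7 and 11.7 CPM in parietal libraries. Frontal libraries lay within the femur range and parietal libraries well below it. The log2 difference of calvaria and femur was -0.72 ± 0.17 (adjusted p = 0.00267, edgeR), but 0.68 (adjusted p = 0.0023) with the trend removed. Against femur, frontal bone differed by 0.05 (adjusted p = 0.832, edgeR) and parietal bone by -1.50 (adjusted p = 1.48e-04). With the trend removed, frontal bone was higher by 1.32 (adjusted p = 3.52e-05) and parietal bone differed by 0.04 (adjusted p = 0.88). Between calvaria and femur its relative Kmt2c (MLL3) went from -0.52 ± 0.12 (adjusted p = 0.0026) to 0.15 (adjusted p = 0.298) with the trend removed. Prdm9, which marks recombination sites in meiosis, stood at 0.70 to 1.72 CPM in femur and 1.43 to 3.21 CPM in calvaria. Its log2 difference was 0.95 ± 0.39 (adjusted p = 0.0531), and 0.99 (adjusted p = 0.0434) with the trend removed.

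Of the 5 H3 lysine 36 methyltransferases, 3 fell and 2 were not called, where 31.4% of all genes fell. With the trend removed 2 fell and 3 rose, beside 27.4% and 31.8% of all genes. Setd2, the enzyme that trimethylates lysine 36 behind RNA polymerase, stood at 77.2, 77.1 and 61.8 CPM in femur libraries 1, 2 and 4, at 39.0, 41.7 and 42.3 CPM in frontal and at 32.0 and 42.9 CPM in parietal libraries. Ash1l, a dimethylase of the trithorax group, stood at 137, 141 and 106 CPM in femur, at 58.9, 64.2 and 63.5 CPM in frontal and at 46.2 and 63.4 CPM in parietal libraries. For both genes no calvarial library reached the femur. Setd2 fell by 0.88 ± 0.13 (adjusted p = 1.42e-04) and Ash1l fell by 1.13 ± 0.14 (adjusted p = 2.77e-05) on the log2 scale, or by 0.54 and 0.64 with the trend removed. Ash1l shares 352 exonic bases with Dap3 on the other strand, which differed by 0.79 in the other direction. The dimethylases Nsd1 and Nsd2 differed by -0.06 ± 0.12 (adjusted p = 0.698) and 0.09 ± 0.11 (adjusted p = 0.509). With the trend removed they were higher, by 0.54 (adjusted p = 0.00306) and 0.44 (adjusted p = 0.00933).

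Of the 3 H4 lysine 20 enzymes, 2 fell and 1 was not called, where 31.4% of all genes fell. With the trend removed 1 fell and 1 rose, beside 27.4% and 31.8% of all genes. Kmt5b, which dimethylates this residue across the genome, stood at 108, 104 and 90.7 CPM in femur libraries 1, 2 and 4, at 33.1, 36.6 and 41.1 CPM in frontal and at 29.7 and 40.5 CPM in parietal libraries. Kmt5c, which trimethylates it in heterochromatin, stood at 9.63, 16.9 and 16.7 CPM in femur, at 34.4, 24.9 and 20.1 CPM in frontal and at 14.1 and 10.4 CPM in parietal libraries. Kmt5b was lower in all calvarial libraries, whereas Kmt5c was above femur in frontal bone and within its range in parietal bone. Kmt5b fell by 1.49 ± 0.13 on the log2 scale (adjusted p = 2.86e-06, edgeR), and by 0.92 with the trend removed. Kmt5c differed by 0.31 ± 0.24 (adjusted p = 0.279), and by 1.19 (adjusted p = 2.42e-04) with the trend removed. Kmt5a, the monomethylase of this residue, differed by -0.34 ± 0.11 (adjusted p = 0.0149), and by -0.13 (adjusted p = 0.328) with the trend removed. Its call was also lost without femur library 2 (adjusted p = 0.0599) or parietal library 4 (adjusted p = 0.0548), with scaling by library size alone (adjusted p = 0.0586) and with no filter on low counts (adjusted p = 0.0789).

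Of the 16 tested demethylases and JmjC proteins, 10 fell and none rose on the TMM scale, beside 31.4% and 29.6% of all genes. None was higher even at an unadjusted p under 0.05 by edgeR, DESeq2 or limma-voom. No share of all genes was taken at that cut. With the trend removed 5 fell and 1 rose, beside 27.4% and 31.8% of all genes. On the scale of osteocyte markers Kdm1a alone was lower, beside 1.03% of all genes. All 3 members of the KDM5 group, which remove trimethyl groups from H3 lysine 4, fell on the TMM scale, with Kdm5a at -0.56, and Kdm5b and Kdm5c did so in both fits. Kdm5b stood at 124, 116 and 115 CPM in femur libraries 1, 2 and 4, at 53.1, 49.0 and 44.7 CPM in frontal and at 35.9 and 32.5 CPM in parietal libraries. Kdm5c stood at 74.3, 77.3 and 67.0 CPM in femur, at 39.4, 44.1 and 35.8 CPM in frontal and at 27.7 and 23.1 CPM in parietal libraries. Both followed the order femur, frontal, parietal without any overlap. Kdm5b fell by 1.53 ± 0.11 (adjusted p = 5.01e-07) and Kdm5c fell by 1.20 ± 0.12 (adjusted p = 7.64e-06) on the log2 scale, or by 0.91 and 0.65 with the trend removed.

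Among the KDM4 genes, whose products act on trimethylated H3 lysine 9 and lysine 36, Kdm4b stood apart. It stood at 66.9, 46.7 and 38.7 CPM in femur libraries 1, 2 and 4, at 19.7, 16.9 and 12.5 CPM in frontal and at 8.56 and 8.63 CPM in parietal libraries. The 3 bones formed separate ranges. The log2 difference was -2.09 ± 0.20, 4.25-fold (adjusted p = 4.21e-06, edgeR), and -1.22 with the trend removed. Kdm4a, of the same group, differed by -0.39 ± 0.17 (adjusted p = 0.0603).

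The KDM3 pair removes mono- and dimethyl groups from H3 lysine 9. Kdm3a stood at 117, 124 and 115 CPM in femur libraries 1, 2 and 4, at 43.9, 71.2 and 46.8 CPM in frontal and at 64.0 and 76.2 CPM in parietal libraries. No calvarial library reached the femur. It fell by 0.94 ± 0.16 on the log2 scale (adjusted p = 2.69e-04, edgeR), and by 0.65 with the trend removed. Kdm3b differed by -0.61 ± 0.16 (adjusted p = 0.00618), and by 0.22 (adjusted p = 0.266) with the trend removed.

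The H3 lysine 27 demethylases gave no call that held in both fits. Kdm6a (UTX) stood at 61.2, 46.4 and 52.9 CPM in femur, at 21.2, 46.5 and 28.5 CPM in frontal and at 42.5 and 49.4 CPM in parietal libraries. Frontal library 2 was at the femur level and frontal libraries 1 and 4 were the lowest. The log2 difference was -0.47 ± 0.21 (adjusted p = 0.074), and without frontal library 2 it was -0.66 (adjusted p = 0.00255). Kdm6b (JMJD3) stood at 20.1, 18.5 and 18.0 CPM in femur, at 14.8, 10.2 and 10.3 CPM in frontal and at 8.26 and 8.25 CPM in parietal libraries. Its difference of -0.93 ± 0.17 (adjusted p = 5.71e-04) became 0.21 (adjusted p = 0.358) with the trend removed. Kdm2b, which recruits a variant Polycomb complex to CpG islands, differed by 0.14 ± 0.19 (adjusted p = 0.547), and by 0.83 (adjusted p = 0.00163) with the trend removed. Kdm1b, the second flavin-dependent demethylase, differed by 0.30 ± 0.20 (adjusted p = 0.206), and 505 of its exonic bases are shared with Dek, a gene with 33546 counts against 1094.

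The remaining genes named for a SET domain include enzymes of other proteins. Setd3, which methylates actin, stood at 68.6, 73.5 and 69.9 CPM in femur, at 97.8, 81.5 and 87.6 CPM in frontal and at 78.1 and 70.5 CPM in parietal libraries. All frontal libraries were above femur, while parietal library 4 lay within its range. The difference was 0.20 ± 0.11 (adjusted p = 0.136), and 0.39 (adjusted p = 0.0139) with the trend removed.

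Ratios of paralogs within a library need no scaling between libraries. For 6 pairs acting on the same residue, log2 ratios of counts were set side by side for the 5 calvarial and the 3 femur libraries. The test was an exact permutation test, two-sided, with 56 possible splits and a smallest p of 0.0179. No pair passed after adjustment over the 6 pairs. The smallest possible p, reached by Ezh2 to Ezh1 and by Kmt5c to Kmt5b, became 0.0536 after adjustment. The ratio of Ezh2 to Ezh1 was 0.09, -0.01 and 0.57 in femur libraries 1, 2 and 4, 1.35, 1.13 and 0.94 in frontal and 1.49 and 1.28 in parietal libraries, on the log2 scale. All calvarial ratios were higher, by 1.02 on average (exact p = 0.0179, adjusted p = 0.0536), and by 0.75 with the trend removed. Per kb of exon, Ezh2 exceeded Ezh1 by 1.32 ± 0.296 times (SD, n = 3) in femur, 2.47 ± 0.350 times (n = 3) in frontal and 2.92 ± 0.302 times (n = 2) in parietal bone.

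The ratio of Kmt5c to Kmt5b was -3.48, -2.61 and -2.44 in femur libraries 1, 2 and 4, 0.06, -0.56 and -1.03 in frontal and -1.07 and -1.96 in parietal libraries. It was higher in all calvarial libraries, by 1.93 on average (exact p = 0.0179, adjusted p = 0.0536), and by 2.21 with the trend removed. The ratio of Ehmt2 to Ehmt1 was lower in all 5 calvarial libraries, by 0.66 (exact p = 0.0536, adjusted p = 0.107), but the mean difference was -0.04 with the trend removed. The other 3 ratios overlapped between bones. Their mean differences were -0.33 for Kdm6b to Kdm6a (exact p = 0.571), -0.45 for Suv39h1 to Suv39h2 (exact p = 0.232) and -0.45 for Kdm3a to Kdm3b (exact p = 0.357). With the trend removed they were 0.60, -0.12 and -0.94 in the same order, so the first changed sign. The smallest adjusted p among them was then 0.143 by the exact permutation test.

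**Figure D4:**
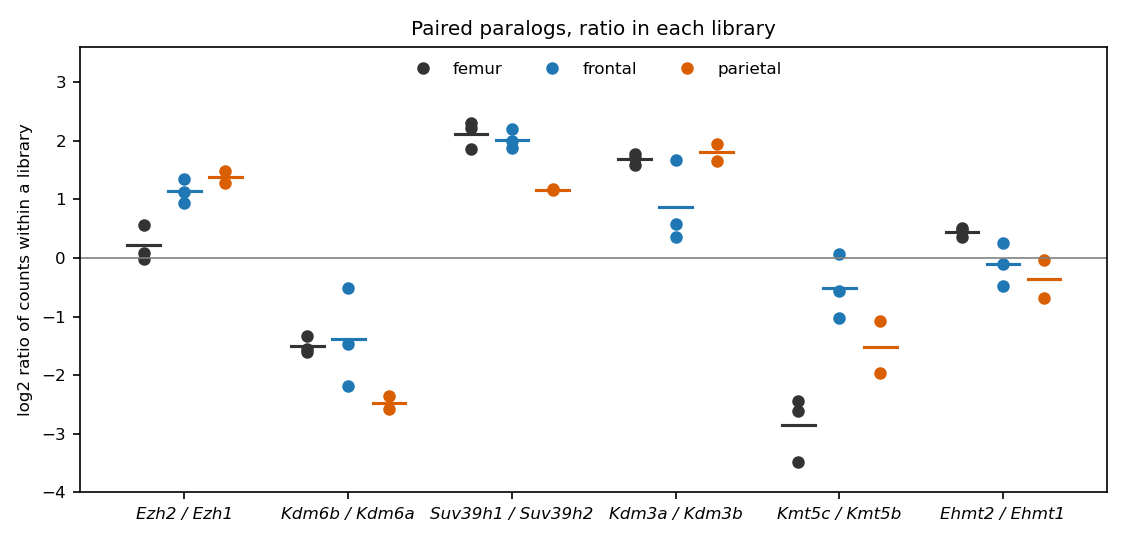
Log2 ratio of counts of 6 pairs of paralogs in each library, with short bars at the bone means. The Ezh2 to Ezh1 and Kmt5c to Kmt5b ratios are higher in all 5 calvarial than in all 3 femur libraries, the Ehmt2 to Ehmt1 ratio is lower, and the other 3 overlap.

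The frontal and the parietal bone were also each set against the femur, and these comparisons share the femur libraries. In frontal bone 6 members rose and 17 fell (background 27.2% and 28.5%), with a median log2 difference of -0.35. In parietal bone 3 rose and 26 fell (background 27.1% and 28.6%), with a median of -0.78. With the trend removed these counts were 15 and 9 in frontal bone (background 30.7% and 25.4%) and 5 and 12 in parietal bone (background 27.2% and 23.9%). Those that rose in frontal bone were Ezh2, Suv39h1, Suv39h2, Setd6, Kmt5c and Setd3, and those in parietal bone Ezh2, Suv39h2 and Prdm9.

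Compared directly, 8 of the 46 members were higher in frontal than in parietal bone and none was lower, beside 3.91% and 3.29% of all genes. In 26 members all frontal libraries lay above both parietal libraries and in 3 they lay below, where all genes gave 21.9% and 25.6%. At an unadjusted p under 0.05, edgeR had 20 higher and 1 lower, a cut for which no share of all genes was taken. DESeq2 called 15 higher, beside 4.33% of all genes, and limma-voom 9, beside 4.96%. Neither called any member lower, beside 4.28% and 5.22% of all genes. The median difference was 0.44 for the members and -0.024 for all genes. Under the trend removal and under the scaling to osteocyte markers 1 member was called, in both cases higher, beside 0.316% and 0.303% of all genes. The count also fell to 0 without femur library 2 or frontal library 1, when edgeR called no gene at all. It was 13 without femur library 1, beside 7.01% of all genes. Leaving out either parietal library leaves only 1 library of that bone.

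Kmt2d differed most, at 30.3 to 34.5 CPM in frontal and 10.7 and 11.7 CPM in parietal libraries. It was 1.55 ± 0.22 higher in frontal bone on the log2 scale (adjusted p = 0.0272, edgeR), and 1.28 with the trend removed (adjusted p = 0.0426). Kmt2c was 0.65 higher (adjusted p = 0.0353), at 58.3, 53.7 and 60.8 CPM in frontal against 37.5 and 35.8 CPM in parietal libraries. With the trend removed Kmt2c was no longer called (0.63, adjusted p = 0.0632). Both genes were picked by their p between these bones. They were among the 26 members in which all frontal libraries lay above both parietal libraries, beside 21.9% of all genes. Setd6, which methylates the NF-kappaB subunit RELA, had 14.3, 11.1 and 12.8 CPM in frontal and 5.89 and 6.89 CPM in parietal libraries, a log2 difference of 1.00 (adjusted p = 0.0324). Kdm4a had 16.3, 17.9 and 13.9 CPM in frontal and 7.49 and 9.60 CPM in parietal libraries, a difference of 0.91 (adjusted p = 0.0357). In neither gene did frontal and parietal libraries overlap, and these genes too were picked by their p between these bones. Suv39h1 differed by 0.85 (adjusted p = 0.0383), Kmt5c by 1.11 (adjusted p = 0.0457), Kdm5c by 0.65 (adjusted p = 0.0394) and Kdm5b by 0.52 (adjusted p = 0.0484), from the values given above.

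**Figure D5:**
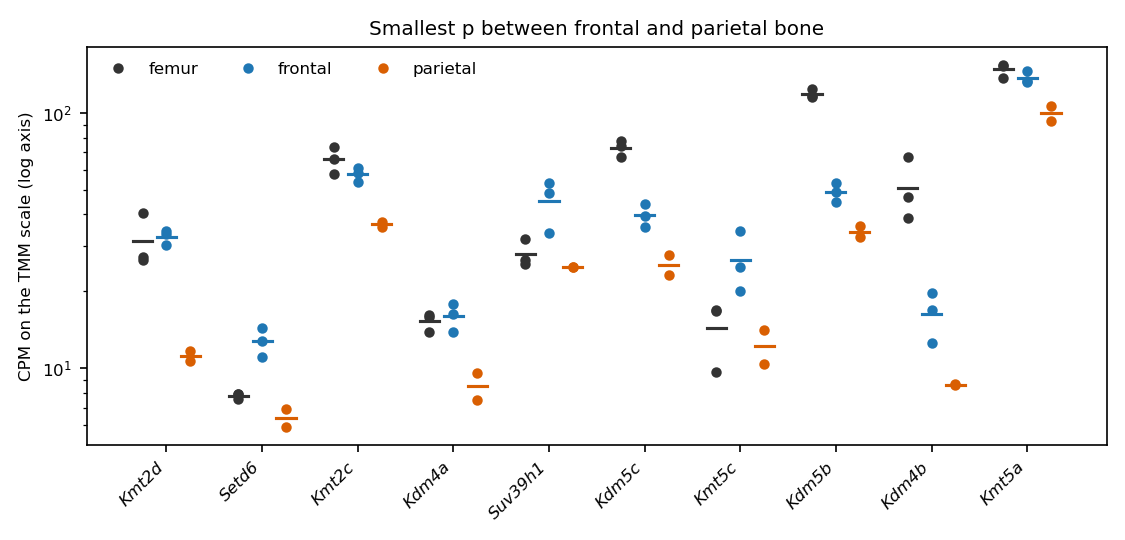
CPM on the TMM scale (log axis) in each library for the 10 members with the smallest p between frontal and parietal bone, with femur beside them. The first 8 passed an adjusted p of 0.05. All 10 were picked by that p. In each, both parietal libraries lie below all frontal libraries, as in 26 of the 46 members and 21.9% of all genes. When the trend was removed or osteocyte markers set the scale, 1 member was called.

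Genes of partner proteins were called in both directions between calvaria and femur, as were genes at large, of which 29.6% rose and 31.4% fell, or 31.8% and 27.4% with the trend removed. Of 12 COMPASS subunits, the scaffold of the H3 lysine 4 writers, 2 rose and 6 fell, or 4 and 3 with the trend removed, and the median log2 difference turned from -0.23 to 0.23. Dpy30 rose by 1.76 ± 0.13, while Ncoa6 fell by 1.13 ± 0.16 and Wdr5 fell by 0.70 ± 0.12. Of 9 tested PRC2 subunits, 2 rose and 3 fell under either fit, with a median of 0.09 on the TMM scale. The accessory subunit Aebp2 fell by 2.26 ± 0.17, from a mean of 167 CPM in femur to 37.8 CPM in frontal and 31.8 CPM in parietal bone. Phf1 fell by 1.74 ± 0.17 and Rbbp7, a histone chaperone, fell by 0.41 ± 0.12.

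The 6 partners of DOT1L and the NSD enzymes, mostly of the elongation machinery, had a median of -0.70, with 1 higher and 3 lower. With the trend removed the median changed sign to 0.16, with 2 higher and 2 lower. Aff1 fell by 1.93 ± 0.15 and Aff4 fell by 1.51 ± 0.10, while Mllt3 rose by 1.72 ± 0.18. In the list for KDM1A, which pairs it with its CoREST scaffold and recruiting factors, 3 of 9 rose and 3 fell under either fit. The scaffold gene Rcor1 fell by 0.74 ± 0.11, Gfi1 fell by 1.24 ± 0.21, and Gfi1b, a repressor of the erythroid and megakaryocyte lineages, rose by 1.26 ± 0.25. The erythroid markers rose with it, and their part was not tested.

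Of 10 partners of the H3 lysine 9 enzymes, 3 rose and 4 fell, or 3 and 2 with the trend removed. Cbx3, a heterochromatin protein, rose by 2.00 ± 0.18, while Morc2a fell by 2.07 ± 0.17 and Wiz, a partner of EHMT1 and EHMT2, fell by 1.47 ± 0.20. Of 9 tested genes of SMYD and other lysine methyltransferases, 3 rose and 3 fell, or 2 and 2. Prdm2 fell by 1.97 ± 0.16, Smyd5 fell by 1.02 ± 0.19 and Smyd3 rose by 0.97 ± 0.20. These 18 partner genes had an adjusted p of 0.0115 or less by edgeR and kept their call with the trend removed. On the scale set by osteocyte markers all 13 that fell turned to higher, where 94.9% of all genes were higher. That scale moves the median of all genes by 3.08, more than any of these falls.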

How the data were processed

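The authors deposited raw counts per gene, whole numbers for 43346 genes and 92 spike-in controls in 8 libraries, and 2 further tables, a filtered copy and scaled values, not used here. Short paired reads were made from total RNA, per the labels' protocols. The submitters' processing notes name STAR 2.5.2a, edgeR, limma and DESeq2, and as builds mm10 and GRCm38.p3, without saying what each was used for. Of strand setting, counting tool and annotation release the sources used here say nothing. Overlapping genes on opposite strands cannot therefore be told apart. Spike-ins held 0.0286 to 0.1759% of counts and were left out.

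The test was edgeR 4.0.16, run in R 4.3.3 (filterByExpr, TMM, robust quasi-likelihood, 3 bones as groups, 8 libraries, 5 residual degrees of freedom, biological coefficient of variation 18.6%). Calvaria is the mean of the frontal and parietal coefficients. Adjusted p-values in the text are edgeR's, by Benjamini-Hochberg across 15511 genes. Standard errors are the log2 difference divided by the root of F. Positions, exonic length (union of exons) and GC content were read from GENCODE M21 (GRCm38) and cover 99.5% of the genes tested. The trend was a natural spline with 5 degrees of freedom each for log2 length and GC, fitted to each library's log2 CPM deviation and passed to edgeR as offsets. Pair ratios had a pseudocount of 0.5. DESeq2 1.42.0 and limma 3.58.1 (voom) were alternatives. Within every bone, libraries differed by more than sampling noise (lowest chi-square per degree of freedom 7.75). The edgeR step was tested on simulated counts.

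The members, the lists and the genes named were chosen with earlier results of these data known. 33 members are named by rule, with values for each library or, for some, the log2 difference alone. These are the 6 with the smallest p in each direction between calvaria and femur, up to 6 called between frontal and parietal bone, the members of the 6 pairs and chosen members of each role. Of a partner list the 3 genes with the smallest p are named. 1 gene of the DOT1L and NSD list is not reported here. Kdm5a, Kmt2e, Kmt2b, Nsd3, Setd1b and Setd5 were named after their values were seen. Ezhip and Smyd1 were not tested.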

Additional observations from a re-analysis of the deposited data

How the results depend on the processing

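With DESeq2 size factors in edgeR no count of members called moved by over 1.5 times, and with limma-voom none did. Scaling by library size alone gave 4 members higher in calvaria than femur in place of 2, beside 32.7% of all genes. It moved the median of all genes to 0.107. Scaling to osteocyte markers gave 44 higher and 2 lower in calvaria against femur, beside 94.9% and 1.03% of all genes. It gave 44 and 1 in frontal bone against femur (94.3% and 0.974%) and 43 and 2 in parietal bone (93.4% and 0.851%). Between frontal and parietal bone 1 was higher in frontal (0.303%). On that scale the log2 differences of calvaria and femur were 1.95 for Ash1l, 2.29 for Ehmt2, 2.12 for Kdm3a, 2.48 for Kdm3b, 1.02 for Kdm4b, 1.56 for Kdm5b, 1.89 for Kdm5c, 2.16 for Kdm6b, 1.90 for Kmt2a, 2.57 for Kmt2c, 2.35 for Kmt2d, 2.74 for Kmt5a, 1.60 for Kmt5b, 2.11 for Setd1a, 2.20 for Setd2 and 2.40 for Setdb1, all negative on the TMM scale. By construction that scaling divides by genes that fell. With the length and GC trend removed the counts were 12 higher and 10 lower in calvaria, 15 and 9 in frontal and 5 and 12 in parietal bone against femur, and 1 higher in frontal than parietal bone. Of the members called lower in calvaria than femur, Ehmt2 (0.29), Kdm3b (0.22), Kdm6b (0.21), Kmt2b (0.39), Kmt2c (0.15), Kmt2d (0.68), Nsd3 (0.32), Setd1b (0.37) and Setd5 (0.09) then turned positive. The cause was not tested. For frontal against parietal bone, 13 members were higher with no filter on low counts (3.59% of all genes) and 15 by DESeq2 (4.33%).

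Leaving out each femur or frontal library in turn gave 2 to 3 members higher and 21 to 28 lower in calvaria against femur. Of all genes, 25.8 to 29.9% were then higher and 28.6 to 32.1% lower. In frontal bone 4 to 6 were higher and 14 to 18 lower, beside 23.2 to 26.7% and 25.5 to 28.4% of all genes. In parietal bone 2 to 3 were higher and 26 to 27 lower, beside 24.1 to 28.1% and 26.2 to 29.9% of all genes. Without parietal library 2 or 4, which leaves 1 of that bone, the members' median in parietal bone against femur was -0.68 or -0.84. Between frontal and parietal bone, leaving out a femur or frontal library gave 0 to 13 higher and 0 to 3 lower. The 13, without femur library 1, stood beside 7.01% of all genes. The 3, without frontal library 2, stood beside 6.79%. With any 1 of the 8 libraries left out, the difference of the log2 ratio of Ezh2 to Ezh1 was 0.91 to 1.19. Its adjusted p was 0.0857 to 0.143 by the exact permutation test. The difference for Kmt5c to Kmt5b was 1.61 to 2.19, and neither ratio changed direction. Before adjustment that test cannot go below 0.0286 without a calvarial library or 0.0476 without a femur library. The larger adjusted p therefore cannot be read as a weaker difference.

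Library numbers are shared between bones. Deviations from the bone mean correlated at -0.10 to 0.15 between same-numbered libraries and at -0.15 to 0.17 between differently numbered ones. With so few libraries per bone, taking out the bone mean ties these values to each other. They therefore cannot tell whether the numbers pair the libraries. The main fit did not pair same-numbered libraries. Whether they share a source is not given in the labels. With the number as a replicate block, 2 members were higher and 26 lower in calvaria than femur, beside 27.8% and 29.6% of all genes. In frontal against parietal bone 0 were higher, where edgeR called no gene. The block together with the trend removal gave 9 higher and 10 lower in calvaria against femur, beside 30.1% and 25.7% of all genes. It gave 14 and 9 in frontal (29.4% and 24.3%) and 4 and 10 in parietal bone (24.2% and 20.9%), and 0 between frontal and parietal bone. Under it Ehmt2 was at 0.31, Kdm3b at 0.24, Kdm6b at 0.25, Kmt2c at 0.16 and Kmt2d at 0.67.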
